A study of Mus musculus with 8 samples.

Results

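The genes described here carry fatty acids into muscle fibres and through mitochondrial beta-oxidation, and they were measured in the gastrocnemius, a calf muscle, of mice with and without Bcat2. Its product, BCATm, is the aminotransferase of mitochondria with which the breakdown of leucine, isoleucine and valine starts. The genes were taken from a list of 33 symbols, grouped by their step in the pathway. All 33 were found among the 38741 distinct symbols of the deposited expression table, and all 33 were among the 11118 genes tested. Acot1 passed the filter on low values only through 1 knockout mouse, KO6, and its difference is used as no support. Messenger RNA was sequenced from 8 males of C57BL6 background, each mouse giving 1 library, and the labels call the mice of a genotype biological replicates. Wild type was represented by 4 mice aged 9 to 10 weeks, of 22 to 25 g. The 4 knockouts were homozygous for the allele Bcat2tm1.2Clyn, were aged 10 to 11 weeks and weighed 15 to 24 g. All of them, and their dams, chose freely between a chow and a diet without branched-chain amino acids. The allele is carried by the whole animal, so the muscle of a knockout developed and lived in a body without BCATm. The libraries are called WT1 to WT4 and KO5 to KO8.

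Long-chain fatty acids are freed from circulating triglyceride by lipoprotein lipase, taken up with the help of CD36, bound inside the fibre by a fatty acid binding protein and activated to acyl-CoA. Acyl groups cross the inner mitochondrial membrane as carnitine esters, and each turn of beta-oxidation then removes a short unit as acetyl-CoA through a dehydrogenase, a hydratase, a second dehydrogenase and a thiolase. The acyl-CoA dehydrogenases hand their electrons to electron transfer flavoprotein and its ubiquinone oxidoreductase, which also serve the dehydrogenases of branched-chain amino acid breakdown.

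Levels are in FPKM, a fragment count divided by exon length and by library size. FPKM summed to between 691168 and 896190 per library, and depth relative to WT2, estimated from low values, ran from 0.437 in WT4 to 1.23 in WT3. The targeted gene Bcat2 stood at 41.2 to 83.0 FPKM in wild type against at 2.09 to 5.26 FPKM in knockouts, a knockout mean of 6.18% of the wild-type mean (limma adjusted p = 0.00245). Transcripts of muscle fibres were abundant in all 8 libraries. All 12 adipocyte markers checked, Adipoq and Plin1 among them, were highest in WT1 and KO6. Their summed level was 15899 FPKM in WT1 and 8382 FPKM in KO6, against 630.6 to 748.8 FPKM in the other wild-type mice and 1337 to 2042 FPKM in the other knockouts. The 5 keratinocyte markers summed to 464 FPKM in KO6 and to at most 2.64 FPKM elsewhere. The slow fibre markers summed to 416, 233, 774 and 1142 FPKM in wild type against to 1565, 438, 458 and 677 FPKM in knockouts, so that the groups overlapped. The 5 endothelial markers summed to 69.0, 40.7, 66.5 and 47.7 FPKM in wild type against 40.3, 47.1, 43.1 and 24.7 FPKM in knockouts, with WT2 the lowest wild type and KO8 the lowest mouse. KO8 was also the lowest mouse for 13 of the 33 fatty acid genes. The median tested gene lay 0.35 log2 units under its 8-mouse mean in KO8, the furthest of any library. The part of these differences in the results that follow was not tested beyond the values given beside them.

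The first comparison asks whether expression of these genes differs in muscle lacking BCATm. Most members had lower mean values in knockouts. The 9 core enzymes of beta-oxidation stood at 63.8% (Hadha) to 87.0% (Hadh) of their wild-type means. Etfdh, which takes up the electrons of the acyl-CoA dehydrogenases among them, stood at 70.9%. The fat-linked genes Cd36, Lpl, Plin2 and Pnpla2 also had lower means but were very uneven among mice of a genotype, and the isomerase Eci1 had a higher mean. None of the 33 passed the threshold of an adjusted p of 0.05 in limma, where 3 of all 11118 tested genes did (0.027%). The lowest adjusted p of any member was 0.480. At an unadjusted limma p under 0.05, 7 members were lower in knockouts, namely Slc25a20, Acadvl, Acadl, Acads, Hadha, Acaa2 and Etfdh. That is 21.2% of the members, beside 7.33% of all tested genes. No member was higher at that level, beside 2.99% of all tested genes. On the log2(FPKM + 1) scale 28 of 33 members were lower in knockouts, beside 63.6% of all tested genes. The median member difference was -0.31, beside -0.12 for all tested genes, and 25 of 33 members lay under that all-gene median, beside 50.0% of all genes by construction. Without Acot1, 28 of 32 members were lower and their median was -0.32. The groups of 4 did not overlap for 3 members, Acadvl, Acads and Etfdh, all lower in knockouts. This is 9.09% of the members, beside 4.68% of all tested genes in that direction, and no member was higher without overlap, beside 2.08%.

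The number of members with an unadjusted p under 0.05 depended on single mice. Without WT2 it was 10 lower members, beside 7.85% of all genes tested in that fit, and without KO7 it was 5, beside 8.56%. It was 3 without WT1 (all genes 7.26%), WT3 (3.15%), WT4 (5.16%), KO5 (4.74%) or KO8 (3.55%), and 2 without KO6 (8.04%). Without WT1, 2 members, Angptl4 and Eci1, were higher at that level, beside 4.49% of all genes. Hadha and Etfdh were counted in each of these 8 fits. Without both WT1 and KO6, 3 of the 32 members still tested were lower at that level, Hadha, Hadhb and Etfdh, beside 7.14% of all genes. In the same 6 mice 10 genes passed the adjusted threshold (0.0935%), none of them a member, and 25 of 32 members had lower knockout values, beside 66.5% of all genes. With 3 mice a group, 6 members were lower without overlap, Plin2, Slc22a5, Acadvl, Acads, Echs1 and Etfdh, which is 18.8% beside 13.7% of all genes.

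**Figure D1:**
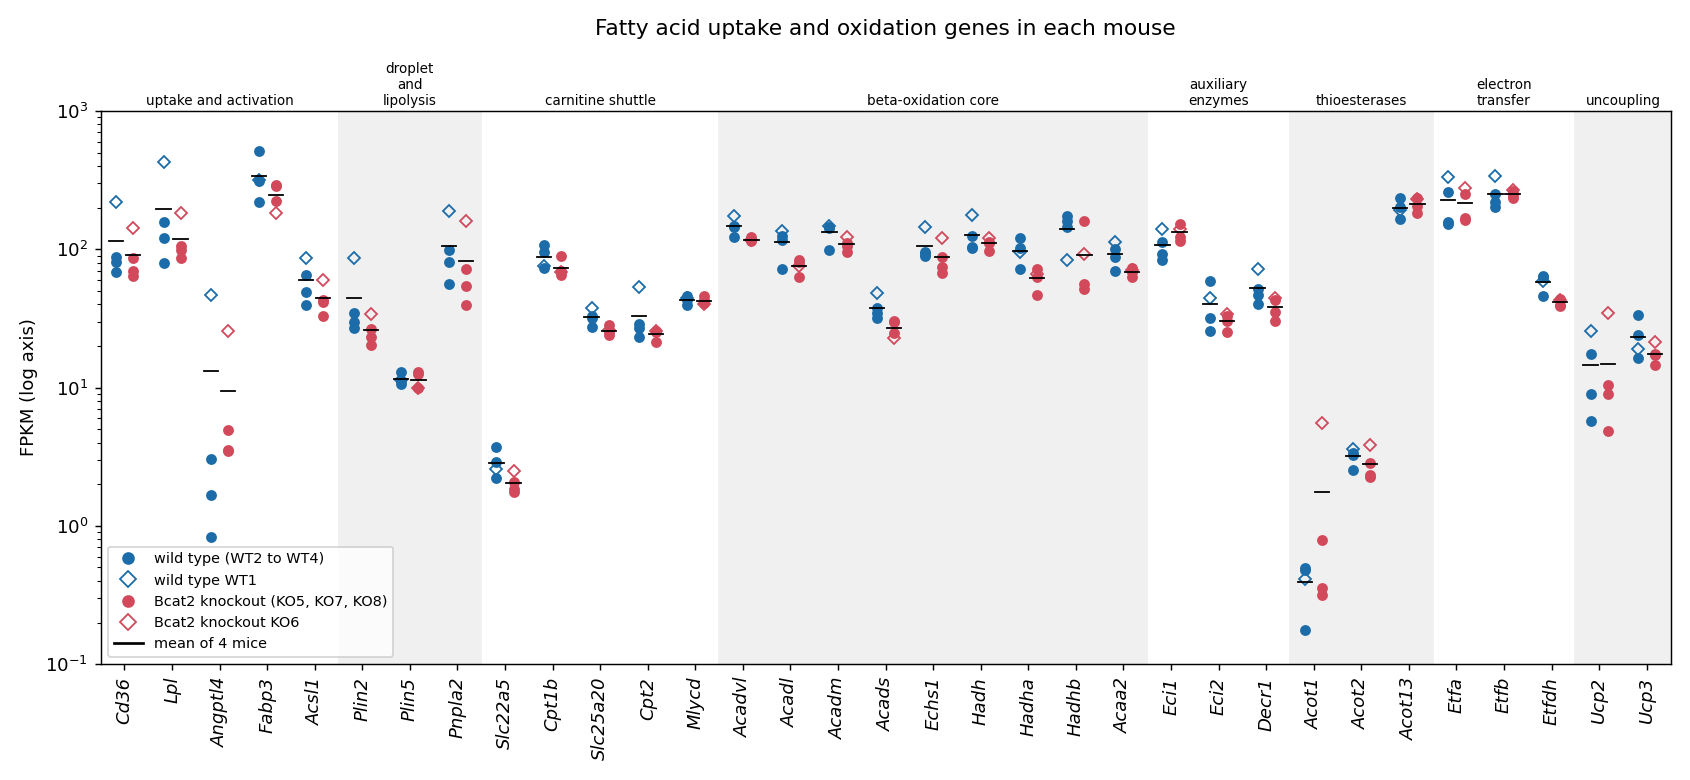
FPKM of the 33 fatty acid genes in each mouse on a log axis, grouped by step, with wild type in blue, knockout in red, the mean of 4 mice as a bar, and the libraries with the most fat transcripts, WT1 and KO6, as open diamonds. The groups stand fully apart only for Acadvl, Acads and Etfdh, and WT1 is the highest mouse for 18 of 33 genes.

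The acyl-CoA dehydrogenases take the first step of each turn and differ in the chain length they accept. Acads, for short chains, had the clearest separation among them. It read 48.2, 31.6, 37.4 and 34.4 FPKM in wild type (mean 37.9 ± 7.24, SD, n = 4) and 24.8, 22.8, 29.9 and 30.2 FPKM in knockouts (mean 26.9 ± 3.70, SD, n = 4). WT1 was the highest mouse, every knockout lay under every wild type, and the narrowest gap was between WT2 and KO8. The log2 difference was -0.47 (SE 0.17, 95% interval -0.86 to -0.08, limma adjusted p = 0.480), and the exact permutation test gave a 2-sided p of 0.0286, the smallest that 4 against 4 mice allow. Without WT1 and KO6 the difference was -0.28.

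Acadvl, for very long chains, read 172.5, 123.1, 146.5 and 145.9 FPKM in wild type against 122.1, 116.1, 114.8 and 116.9 FPKM in knockouts. The knockouts lay within a narrow band just under the lowest wild-type mouse, WT2, and the groups did not overlap. The knockout mean of 117.5 ± 3.18 FPKM was 79.9% of the wild-type mean of 147.0 ± 20.2 FPKM (SD, n = 4 each), with a log2 difference of -0.31 (95% interval -0.61 to -0.01, limma adjusted p = 0.481, exact permutation p = 0.0286). Under median-ratio scaling of the libraries it was -0.16. Exons of Acadvl share 1151 bases with Dvl2 on the opposite strand, Dvl2 was listed at 0 in all 8 mice, and no source used here gives the strand setting of the counting, so the level of Acadvl is uncertain.

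Acadl, for long chains, read 136.0, 72.4, 117.1 and 125.5 FPKM in wild type against 81.4, 75.3, 83.0 and 63.1 FPKM in knockouts. WT2 lay within the knockout range, and the other wild-type mice lay above all knockouts. Its knockout mean was 67.1% of the wild-type mean (log2 difference -0.54, SE 0.21, limma adjusted p = 0.480, exact permutation p = 0.114). Acadm, for medium chains, read 98.9 to 146.7 FPKM in wild type against 94.8 to 123.3 FPKM in knockouts, with overlapping groups (log2 difference -0.27, or -0.12 under median-ratio scaling, limma adjusted p = 0.516). WT2 was again the low wild-type mouse. The ratio of Acadl to Acadm within a mouse, which does not depend on library scaling, was 0.839 ± 0.0854 in wild type against 0.696 ± 0.0715 in knockouts (SD, n = 4 each; exact permutation p = 0.0857). Of the ratios read it had the smallest p. The same test gave 0.2 for Acot2 to Acot1, 0.743 for Etfa to Etfb, 0.771 for Hadhb to Hadha and 0.8 for Ucp3 to Ucp2.

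Hadha and Hadhb encode the alpha and beta subunits of the mitochondrial trifunctional protein, which carries out the hydratase, dehydrogenase and thiolase steps for long chains. Hadha read 94.9, 71.4, 121.2 and 102.8 FPKM in wild type against 63.4, 66.0, 72.4 and 47.0 FPKM in knockouts. WT2 and KO7 crossed by about 1 FPKM, and the other mice separated by genotype. The knockout mean of 62.2 ± 10.8 FPKM was 63.8% of the wild-type mean of 97.6 ± 20.6 FPKM (SD, n = 4 each), with a log2 difference of -0.63 (SE 0.20, 95% interval -1.09 to -0.18, limma adjusted p = 0.480, exact permutation p = 0.0571). It was -0.48 under median-ratio scaling, where Hadha was the single member lower at an unadjusted limma p under 0.05, beside 5.16% of all tested genes.

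Hadhb read 84.2, 160.7, 145.5 and 174.1 FPKM in wild type against 56.5, 92.7, 161.4 and 51.9 FPKM in knockouts. WT1 was the lowest wild type, and KO6 and KO7 lay above it, KO7 within the range of the other wild types, so the groups overlapped. The log2 difference was -0.73 with a wide 95% interval of -1.61 to 0.14 (limma adjusted p = 0.487), and without WT1 and KO6 it was -1.02. The subunits did not keep one ratio across mice. Hadhb over Hadha was 0.886, 2.25, 1.201 and 1.69 in wild type against 0.890, 1.40, 2.23 and 1.10 in knockouts, with each genotype spanning much of the range of the other (exact permutation p = 0.771).

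**Figure D2:**
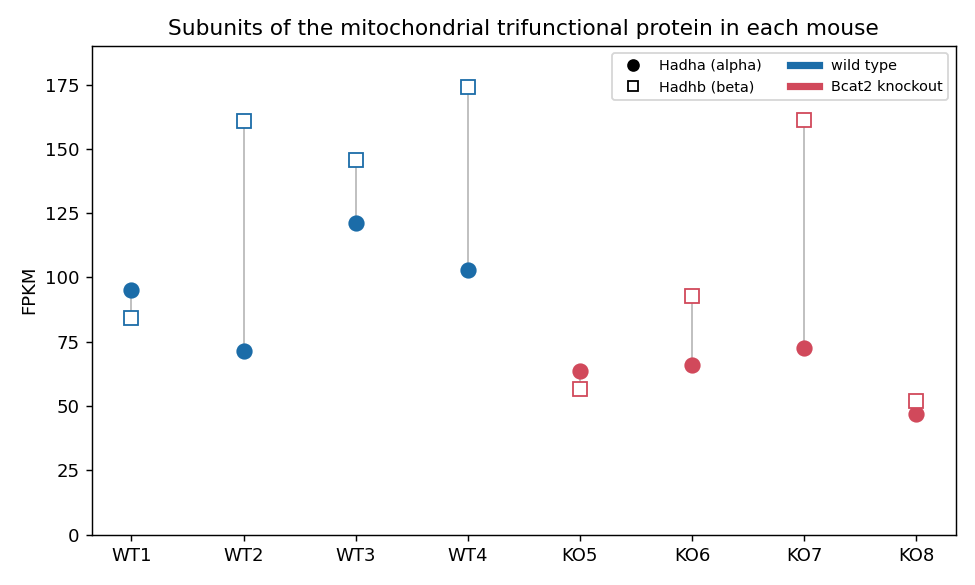
FPKM of Hadha (filled circles) and Hadhb (open squares), the 2 subunits of the trifunctional protein, in each mouse, with wild type in blue, knockout in red and a grey line joining the pair. Hadha lies between 71.4 and 121.2 FPKM in wild type against between 47.0 and 72.4 FPKM in knockouts, while Hadhb ranges widely in both genotypes.

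The remaining core enzymes process medium and short chains. Acaa2, the thiolase of medium chains, read 112.3, 69.7, 87.5 and 100.2 FPKM in wild type against 62.6, 71.2, 73.2 and 68.8 FPKM in knockouts. WT2 lay inside the knockout range and the other wild-type mice lay above it (knockout mean 74.6% of wild type, log2 difference -0.40, SE 0.17, limma adjusted p = 0.480), and under median-ratio scaling the difference was -0.25. Echs1, the short-chain hydratase, was highest in WT1 at 145.7 FPKM and in KO6 at 119.9 FPKM, with 90.04 to 94.98 FPKM in the other wild types and 67.2 to 88.2 FPKM in the other knockouts. Without those 2 mice its groups did not overlap, with means of 92.4 ± 2.48 and 76.7 ± 10.6 FPKM (SD, n = 3 each), and its log2 difference was -0.28 in both fits as deposited. Under median-ratio scaling it was -0.13 in 8 mice. Hadh, the dehydrogenase of the third step, read 101.7 to 177.2 FPKM in wild type against 96.3 to 121.1 FPKM in knockouts (log2 difference -0.17, limma adjusted p = 0.696). All 9 core enzymes had a negative log2 difference, with a median of -0.40, and none passed the adjusted threshold in limma.

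Electron transfer from the acyl-CoA dehydrogenases runs through the flavoprotein subunits Etfa and Etfb to the oxidoreductase Etfdh, which passes the electrons to ubiquinone. Etfdh had the smallest unadjusted p of all members. It read 59.3, 46.2, 63.5 and 63.5 FPKM in wild type (mean 58.2 ± 8.18, SD, n = 4) and 39.4, 42.9, 43.9 and 38.8 FPKM in knockouts (mean 41.2 ± 2.57, SD, n = 4). All knockouts lay under all wild types, and WT2 was the wild-type mouse nearest to them. The log2 difference was -0.48 (SE 0.14, 95% interval -0.80 to -0.15, unadjusted limma p = 0.00887, adjusted p = 0.480, exact permutation p = 0.0286). It stayed at -0.48 without WT1 and KO6 and was -0.33 under median-ratio scaling, where the unadjusted p was just over 0.05.

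The means of the flavoprotein subunits lay close together. Etfa read 332.9, 153.2, 158.3 and 260.6 FPKM in wild type against 251.8, 279.4, 161.6 and 167.5 FPKM in knockouts, with a log2 difference of -0.04 (95% interval -0.72 to 0.65). Etfb averaged 252.5 ± 61.2 FPKM in wild type against 252.4 ± 14.9 FPKM in knockouts (SD, n = 4 each), with a log2 difference of 0.03 (95% interval -0.37 to 0.42). The interval of Etfa also holds the difference of Etfdh, and that of Etfb does not. Whether Etfdh differed from either subunit was not tested. Exons of Etfb share 617 bases with the gene model Gm45233 on the same strand.

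The carnitine shuttle brings acyl groups to the matrix enzymes. Slc25a20, the carnitine-acylcarnitine carrier of the inner membrane, read 37.5, 27.4, 31.6 and 33.1 FPKM in wild type against 28.1, 26.2, 25.3 and 23.8 FPKM in knockouts. Only WT2 and KO5 crossed. Its knockout mean was 79.8% of the wild-type mean (log2 difference -0.31, SE 0.13, limma adjusted p = 0.484, exact permutation p = 0.0571), and under median-ratio scaling the difference was -0.16. Slc22a5, the carnitine importer of the cell surface, was low in all mice, at 2.22 to 3.69 FPKM in wild type against 1.76 to 2.51 FPKM in knockouts (log2 difference -0.33, limma adjusted p = 0.486). Of its 4 knockouts only KO6 reached the wild-type range.

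Cpt1b, the muscle carnitine palmitoyltransferase that commits acyl groups to the mitochondrion, read 75.2, 73.6, 107.7 and 95.1 FPKM in wild type against 89.8, 68.5, 70.02 and 64.7 FPKM in knockouts, overlapping through KO5 (log2 difference -0.25, limma adjusted p = 0.554). Its exons share 2744 bases with the gene model Gm44502 on the same strand, so its level is uncertain. Cpt2, which rebuilds acyl-CoA inside, read 53.1 FPKM in WT1 against 23.2 to 28.8 FPKM in the other wild types and 21.5 to 25.5 FPKM in knockouts. Its difference of -0.35 was -0.12 without WT1 and KO6. Mlycd, which breaks down the Cpt1 inhibitor malonyl-CoA, averaged 43.2 ± 2.95 and 42.3 ± 2.47 FPKM (SD, n = 4 each), with a log2 difference of -0.03 (95% interval -0.29 to 0.24).

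Of the 8 uptake and storage genes, 6 were highest within each genotype in the mouse with the most fat transcripts, WT1 or KO6. In a muscle sample, fewer cells of a type and less RNA per cell cannot be told apart, and these 6 members, Cd36, Lpl, Acsl1, Plin2, Pnpla2 and Angptl4, are also abundant in fat cells. Angptl4, an inhibitor of lipoprotein lipase, read 46.8 FPKM in WT1 and 25.7 FPKM in KO6, against 0.828 to 3.02 FPKM in the other wild types and 3.47 to 4.90 FPKM in the other knockouts. Lpl, lipoprotein lipase itself, read 427.6, 79.4, 121.4 and 157.5 FPKM in wild type against 86.5, 184.0, 99.1 and 106.3 FPKM in knockouts. Its highest values were again in WT1 and KO6, and the other 6 mice overlapped. Cd36, the fatty acid translocase, read 221.1 FPKM in WT1 and 142.4 FPKM in KO6, and 63.9 to 88.0 FPKM in the others. Its log2 difference of -0.24 was -0.11 without those mice. Without them the means of Lpl were 119.4 ± 39.1 FPKM in wild type against 97.3 ± 10.0 FPKM in knockouts (SD, n = 3 each), where the 8 mice gave a knockout mean of 60.6% of the wild-type mean.

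Without WT1 and KO6, Angptl4 was higher in knockouts without overlap, at 1.84 ± 1.11 FPKM in wild type against 3.97 ± 0.805 FPKM in knockouts (SD, n = 3 each; log2 difference 0.87, limma adjusted p = 0.453). It was the one member higher at an unadjusted p under 0.05 in those 6 mice, beside 3.24% of all genes, and with Eci1 one of 2 members higher without overlap, beside 6.12% of all genes. The adipocyte markers also summed higher in those 3 knockouts than in those 3 wild types, without overlap. Most of that sum came from Fabp4 and Cfd. Singly, Fabp4, Cfd, Adipoq, Plin1 and Retn were higher without overlap. Aqp7 was lower without overlap, at 3.15, 3.91 and 2.47 FPKM in knockouts against 4.75, 5.23 and 4.14 FPKM in wild types. Cidec, Lep, Lipe, Adrb3, Pck1 and Cidea overlapped. The part of these markers in the difference of Angptl4 was not tested.

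Fabp3, the fatty acid binding protein of heart and skeletal muscle, is not one of the fat-linked members. It had the smallest p of the uptake genes, at 315.1, 218.4, 309.2 and 514.3 FPKM in wild type against 221.5, 184.1, 289.5 and 288.1 FPKM in knockouts (log2 difference -0.42, limma adjusted p = 0.532). WT4, the shallowest library, was the highest mouse, KO6 was the lowest, and the groups overlapped. Acsl1, which activates long-chain fatty acids, read 39.8 to 86.1 FPKM in wild type against 32.96 to 60.3 FPKM in knockouts (log2 difference -0.40, limma adjusted p = 0.546). Acsl1 too was highest in WT1 among wild types and in KO6 among knockouts.

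Of the droplet genes, Plin2, a coat protein of lipid droplets, read 87.1, 26.8, 34.8 and 29.7 FPKM in wild type against 26.4, 34.1, 23.0 and 20.4 FPKM in knockouts. WT1 stood apart, and without WT1 and KO6 the remaining 3 mice of each genotype did not overlap, with means of 30.4 ± 4.06 and 23.3 ± 2.99 FPKM (SD, n = 3 each; log2 difference -0.37, against -0.61 in 8 mice). Pnpla2, the first triglyceride lipase, read 189.2 FPKM in WT1, 160.4 FPKM in KO6, 56.3 to 98.9 FPKM in the other wild types and 39.7 to 71.6 FPKM in the other knockouts (log2 difference -0.44, limma adjusted p = 0.674). Plin5, the droplet coat of oxidative tissues, read 10.7 to 12.9 FPKM in wild type against 9.90 to 12.9 FPKM in knockouts (log2 difference -0.03, 95% interval -0.34 to 0.28). WT1 and KO6 did not stand out for it.

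**Figure D3:**
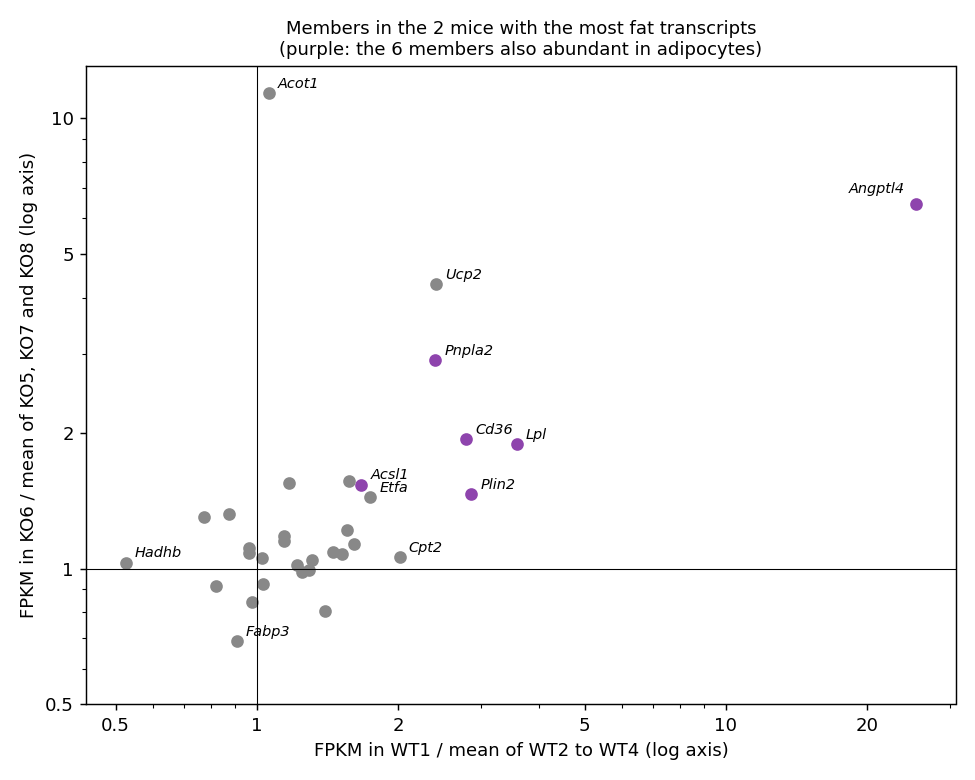
For each fatty acid gene, FPKM in WT1 over the mean of the other wild types (x, log axis) against FPKM in KO6 over the mean of the other knockouts (y, log axis), with the 6 members also abundant in adipocytes in purple. Angptl4 lies at 25.4 and 6.47, Lpl lies at 3.58 and 1.89, and Acot1 stands out in KO6 alone. Of the 20 members in the shuttle, core, auxiliary and electron transfer steps, 9 reach at least 1.3 on the WT1 axis. Cpt2 at 2.02 and Etfa at 1.75 are among them, and 3 of the 20 reach 1.3 on the KO6 axis.

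The auxiliary enzymes handle the double bonds of unsaturated fatty acids. Eci1, an enoyl-CoA isomerase, ran against the other enzymes, at 140.1, 92.8, 83.9 and 112.1 FPKM in wild type against 152.4, 141.0, 114.4 and 122.2 FPKM in knockouts. Only WT1 reached the knockout range. Its log2 difference was 0.32 (95% interval -0.10 to 0.75, limma adjusted p = 0.511), and under median-ratio scaling it was 0.47, the single member higher at an unadjusted p under 0.05 there, beside 6.75% of all genes. Decr1, the dienoyl-CoA reductase, read 72.1, 40.5, 46.9 and 51.7 FPKM in wild type against 30.4, 44.1, 42.8 and 35.4 FPKM in knockouts, overlapping through WT2 (log2 difference -0.44, limma adjusted p = 0.484). Eci2 averaged 40.3 ± 14.7 and 30.5 ± 3.88 FPKM (SD, n = 4 each; log2 difference -0.33, limma adjusted p = 0.594), with WT3 highest at 59.1 FPKM.

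Thioesterases split acyl-CoA back to free fatty acid. Acot13 read 164.2 to 234.9 FPKM in wild type against 182.2 to 235.2 FPKM in knockouts (log2 difference 0.11), with overlapping groups. Acot2, the mitochondrial member, read 3.58, 2.55, 3.36 and 3.27 FPKM in wild type against 2.32, 3.84, 2.26 and 2.86 FPKM in knockouts, overlapping through WT2 and KO6 (log2 difference -0.15, limma adjusted p = 0.699). Acot1, its close copy in the cytosol, lay at 0.178 to 0.497 FPKM in wild type against at 0.316, 0.356 and 0.795 FPKM in 3 knockouts, with 5.57 FPKM in KO6 alone. Acot1 and Acot2 are near-identical neighbours on chromosome 12, so reads can be split between them and both values are uncertain. The log2 difference of Acot1 was 0.63 in 8 mice and is read no further, since KO6 alone brought it past the filter.

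Ucp3, the muscle uncoupling protein, read 19.0, 16.3, 33.5 and 23.9 FPKM in wild type against 14.5, 21.3, 17.2 and 17.4 FPKM in knockouts, overlapping through WT1 and WT2 (knockout mean 75.8% of wild type, log2 difference -0.34, limma adjusted p = 0.540). Ucp2, its relative in many tissues, read 25.9 FPKM in WT1, 34.7 FPKM in KO6 and 4.86 to 17.4 FPKM in the others (log2 difference -0.12, 95% interval -1.48 to 1.24). KO6 and WT1 held the highest values of Ucp2, which was so for 9 of the 33 members. The others were Cd36, Lpl, Angptl4 and Pnpla2, and also Echs1, Acot2, Etfa and Etfb, which are not among the fat-linked members.

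The steps were then set beside the median of all tested genes in each mouse, since KO8 lay low for genes at large. Core enzymes had median log2 deviations from the 8-mouse mean, relative to all genes, of 0.39, -0.03, 0.07 and 0.28 in wild type against of -0.15, -0.31, -0.05 and 0.02 in knockouts. WT1 and WT4 stood highest and KO6 lowest, and WT2 lay within the knockout range. The uptake step read 1.12 in WT1 and 0.30 in KO6, and the highest of the other mice was KO8 at 0.01. Relative to all genes, the step medians of the genotype difference were -0.28 for the core, -0.28 for uptake, -0.32 for the droplet, -0.19 for the shuttle, -0.21 for auxiliary enzymes, 0.23 for thioesterases (0.10 without Acot1), 0.08 for electron transfer and -0.11 for uncoupling.

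**Figure D4:**
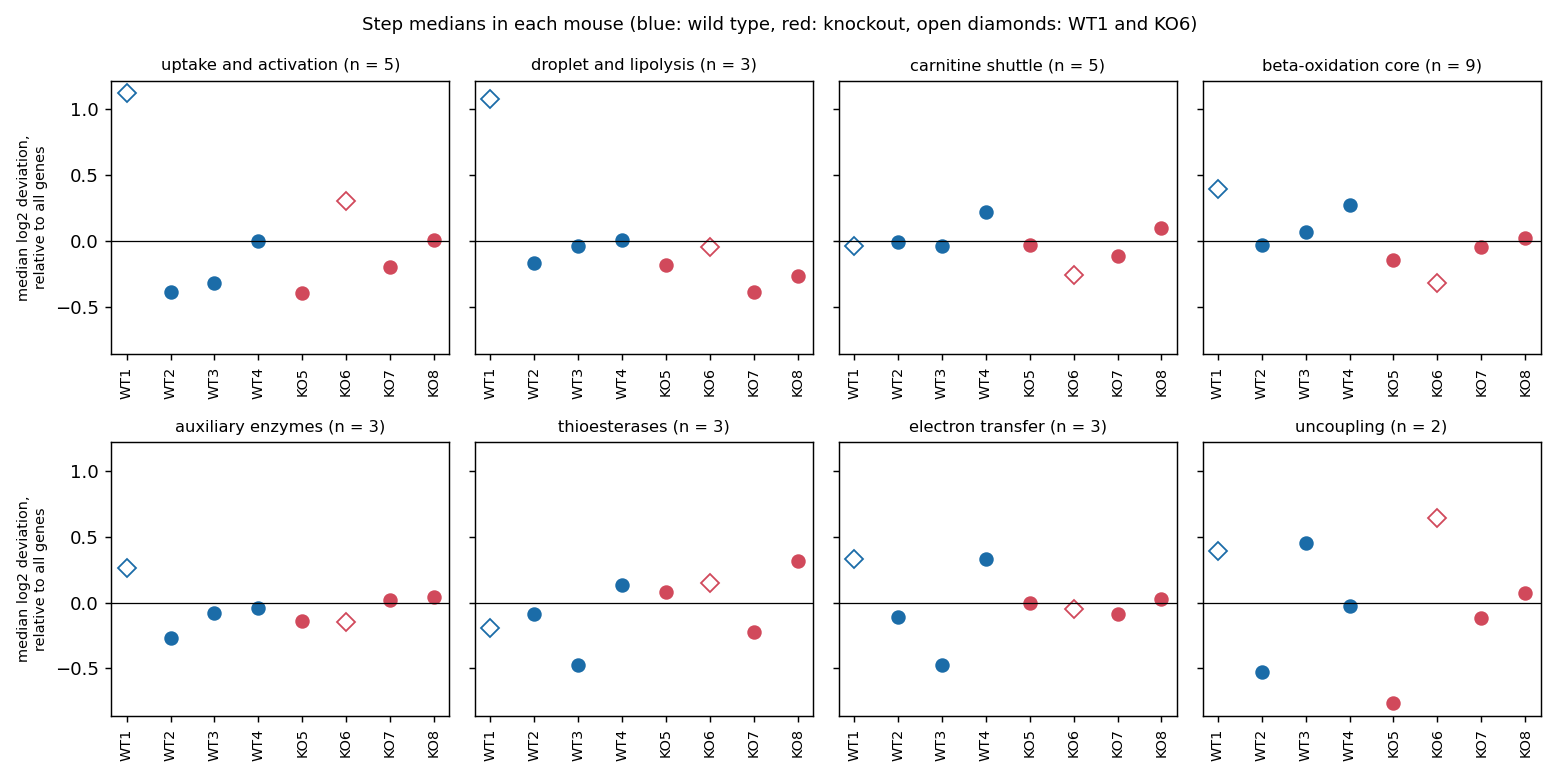
Median log2 deviation of each step's genes from their 8-mouse mean, less the median over all tested genes in that mouse, for the 8 steps, with wild type in blue, knockout in red and WT1 and KO6 as open diamonds. In the core the wild types run from -0.03 to 0.39 and the knockouts from -0.31 to 0.02, while uptake is set apart by WT1 at 1.12.

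With median-ratio scaling the median of all genes moved from -0.12 to -0.002, 24 of 33 members were lower beside 50.3% of all genes, and the member median was -0.16. In the 6 mice without WT1 and KO6 under that scaling, 22 of 32 members were lower and the member median was -0.066. The share of all genes lower was not counted in that fit. There Acads read -0.066, Acadvl -0.012, Acadm -0.065, Echs1 -0.062, Acaa2 -0.10 and Slc25a20 -0.036, while Hadha read -0.46, Etfdh -0.27 and Acadl -0.22. Angptl4 at 1.04 and Eci1 at 0.64 were higher in knockouts in that fit. The unadjusted limma p was 0.013 for Angptl4, 0.030 for Eci1 and 0.040 for Hadha, with an adjusted p of 0.368 for each. The share of all genes at such p values was not counted there. Transcript length also moved with the difference. Spearman's rho between the log2 difference and transcript length was -0.26 over 11024 genes and -0.26 over the 33 members, across genes that are no independent replicates. Of the 5 members with a transcript under 1500 bases 2 were lower, of the 17 with 1500 to under 3000 bases 16 were lower, and of the 11 longer ones 10 were lower. Over all tested genes the median difference in these length classes was 0.10, -0.08 and -0.18. With the trend on length and GC content removed in each mouse, 26 of 33 members were lower, the member median was -0.21 beside -0.03 for all genes, and Acadl, Hadha and Etfdh had an unadjusted limma p under 0.05 (5.42% of all genes in that direction). The part of length in the differences was not tested further.

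**Figure D5:**
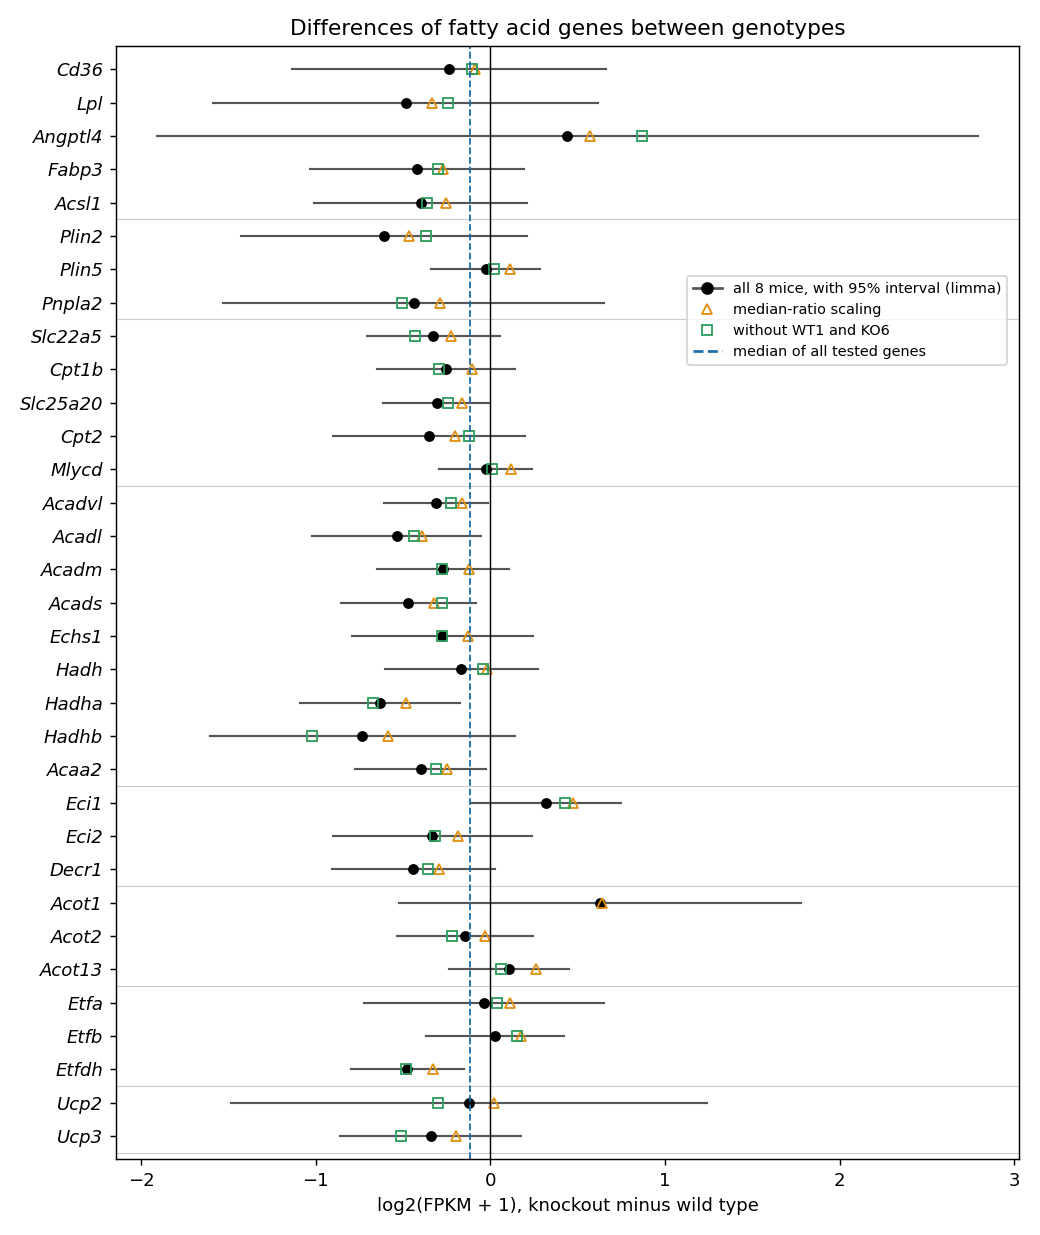
Knockout minus wild type on the log2(FPKM + 1) scale for each fatty acid gene, with the limma estimate and 95% interval from 8 mice in black, estimates under median-ratio scaling as triangles, those without WT1 and KO6 as squares, and the median of all tested genes (-0.12) as a dashed line. All 9 core enzymes lie under 0 in 8 mice, from -0.17 for Hadh to -0.73 for Hadhb, and Eci1 lies at 0.32.

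Promoter sequences were read for the members because the fatty acid genes are textbook targets of the PPAR and ERR nuclear receptors, which bind the hexamer AGGTCA. RefSeq windows of the GRCm38.p6 build, from 250 bases before to 50 bases after the start site, were found for 27 of the 33 members, in 29 windows. Acaa2, Acot13, Cpt1b, Angptl4, Lpl and Decr1 had no window and were not searched. Only exact matches within these windows were counted, so sites elsewhere or with a mismatch were not seen. The hexamer, on either strand, was present in 8 of these 29 windows (27.6%), beside 16.26% of all 32851 windows of that length. It lay in the windows of Acadm, Acadvl, Cd36, Echs1, Plin2, Plin5 and Ucp3. A tandem of AGGNCA and AGGTCA with 1 base between, the PPAR type of site, was in no member window (0.09% of all windows), nor was the extended ERR type TCAAGGTCA (0.42%), which contains the hexamer. The 250 bases before the start site are given for Acadvl, whose groups did not overlap and which holds 1 hexamer at -87 to -82; for Ucp3, which holds 2, at -149 to -144 and -44 to -39; for Etfdh, the member with the smallest p, with none; and for Hadhb, whose start site lies 273 bases from that of Hadha on the opposite strand, so that the windows of the pair share 228 bases. Hexamers are in capitals.
Acadvl, chr11:70015429-70015678, minus strand: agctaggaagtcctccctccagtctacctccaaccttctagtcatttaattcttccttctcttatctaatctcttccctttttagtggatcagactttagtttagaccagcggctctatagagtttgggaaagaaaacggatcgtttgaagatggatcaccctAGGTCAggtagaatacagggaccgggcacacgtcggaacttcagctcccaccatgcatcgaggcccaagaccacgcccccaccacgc
Ucp3, chr7:100472741-100472990, plus strand: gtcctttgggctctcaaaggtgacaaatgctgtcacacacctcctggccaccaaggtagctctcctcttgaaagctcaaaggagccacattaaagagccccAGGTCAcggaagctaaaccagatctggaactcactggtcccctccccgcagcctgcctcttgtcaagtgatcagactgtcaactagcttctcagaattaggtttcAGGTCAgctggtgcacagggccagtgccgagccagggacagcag
Etfdh, chr3:79628768-79629017, minus strand: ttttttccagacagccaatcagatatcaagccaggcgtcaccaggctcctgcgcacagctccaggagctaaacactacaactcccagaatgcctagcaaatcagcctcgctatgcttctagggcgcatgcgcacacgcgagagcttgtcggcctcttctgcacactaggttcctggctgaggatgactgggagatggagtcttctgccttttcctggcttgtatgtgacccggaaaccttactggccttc
Hadhb, chr5:30155003-30155252, plus strand: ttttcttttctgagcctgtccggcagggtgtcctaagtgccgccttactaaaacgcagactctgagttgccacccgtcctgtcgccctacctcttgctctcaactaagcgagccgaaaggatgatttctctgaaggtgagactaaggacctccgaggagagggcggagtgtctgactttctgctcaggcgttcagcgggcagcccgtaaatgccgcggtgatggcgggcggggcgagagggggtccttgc
The members with the hexamer did not share one difference between genotypes. Their log2 differences ran from -0.61 for Plin2 to -0.03 for Plin5, and Etfdh, Hadha and Acads, with the smallest p values, hold none in this window.

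Other genes of the pathway, a separate list of 43, were read from the same fit. Of the 41 tested, 30 were lower and 11 higher in knockouts, beside 63.6% of all genes lower. None passed the adjusted threshold in limma, and 5 were lower at an unadjusted p under 0.05, beside 7.33% of all genes. Gpam, which starts triglyceride synthesis, averaged 19.98 ± 4.84 FPKM in wild type against 11.5 ± 3.79 FPKM in knockouts (log2 difference -0.77, limma adjusted p = 0.480). Acad9, a relative of Acadvl that also assembles complex I, averaged 28.7 ± 3.50 and 18.7 ± 4.72 FPKM (log2 difference -0.63). Crat, the carnitine acetyltransferase that buffers acetyl-CoA, averaged 104.5 ± 31.2 and 67.4 ± 15.0 FPKM (SD, n = 4 each for these genes). Among regulators, the receptor Rxra averaged 25.2 ± 6.28 and 17.9 ± 3.00 FPKM and the coactivator Ppargc1a 3.89 ± 0.713 and 2.83 ± 0.269 FPKM. Gpam, Acad9 and Ppargc1a, 3 of the 41, were lower without overlap, beside 4.68% of all genes. Acsl4, an acyl-CoA synthetase, was higher without overlap, at 6.45 ± 0.388 and 8.08 ± 1.18 FPKM (limma adjusted p = 0.484). It was 1 of the 41 in that direction, beside 2.08% of all genes.

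The deposited table of the authors also flags genes by their own p-value, from a test that no source used here describes. Of the 33 members, 24 carry in the authors' deposited table the flag for p under 0.05 and 16 that for p under 0.001, beside 20.2% and 10.8% of the tested genes. All 7 members with an unadjusted limma p under 0.05 are among the 24. Of the 24 flagged in the authors' deposited table, 23 had a lower and 1, Eci1, a higher knockout mean, and 21 had groups of mice that overlapped. The flags went with abundance. All 24 lie among the 27 members with a mean of at least 20 FPKM, and 50.9% of all tested genes at that level are flagged in the authors' deposited table.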

How the data were processed

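Gastrocnemius RNA of 8 mice was sequenced for 50 cycles from TruSeq libraries, 8 to a lane, per the labels' protocols. Per those protocols TopHat 2.0.9 placed the reads on mm10 and Cufflinks 2.0.2 summarised them, whereas Cufflinks 2.2.1 and CASAVA 1.8.2 stand in the submitters' processing notes. No source used here gives the gene annotation or the strand setting. The deposited values are FPKM, 1 column per mouse, beside flags for thresholds of the authors' own p-values, per the file headers. The authors' standard errors of each genotype mean were deposited as signal values beside them, per the file headers, and were not used. Wild-type columns were matched to mice by number. KO5 to KO8 match the knockout group but no single labelled mouse.

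The row with the highest mean per symbol was used, and genes whose mean FPKM reached 1 were tested with limma-trend on log2(FPKM + 1), 2-sided, genotype as the only term, Benjamini-Hochberg adjusted over 11118 genes, threshold 0.05. This scale understates differences of genes with low FPKM. Single members also had an exact permutation test of the mean FPKM over 70 labelled splits. FPKM carry no read totals, so precision rests on the spread between mice. Members with an unadjusted p under 0.05 or without overlap, and the smallest p of each step, were given per mouse. Gene lengths and overlaps came from GENCODE of the same build. The members, lists and alternatives were chosen with earlier results of these data known.

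Alternatives were pseudocounts of 0.1 and 0.5, no filter or a mean of at least 5 FPKM, median-ratio and quantile scaling, summed rows, robust eBayes, array weights, zeros as missing, each mouse left out, and WT1 and KO6 left out. Removing a loess trend on length and GC (span 0.5), and leaving out WT1 and KO6 with median-ratio scaling, were added after seeing the data. The code was tested on simulated data for knockout against wild type with 11117 genes: it recovered 39 of 100 genes changed by a log2 of 1 and 79 of 100 changed by a log2 of 2, with 5 false among 123 calls. R 4.3.3, limma 3.58.1, Python 3.11.15, pandas 2.3.3, scipy 1.17.1, numpy 2.4.6 and matplotlib 3.10.9 were used.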

Additional observations from a re-analysis of the deposited data

Results flagged for a closer look

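Among the 66 groups of 4 mice (33 genes in 2 genotypes), 8 held a mouse far from the other 3, where the gap to the nearest mouse, as a share of the group's range, passed Dixon's 95% critical value. Chance flags about 1 group in 20, but the groups come from the same 8 mice and are not independent, so no excess over chance is read. WT1 was the far mouse in 4 of the 8 flagged groups. It was highest for Cd36 at 221.1 FPKM (others 68.0 to 88.0), for Angptl4 at 46.8 FPKM (others 0.828 to 3.02), for Plin2 at 87.1 FPKM (others 26.8 to 34.8) and for Echs1 at 145.7 FPKM (others 90.04 to 94.98). KO6 was highest among knockouts for Angptl4 at 25.7 FPKM (others 3.47 to 4.90) and for Acot1 at 5.57 FPKM (others 0.316 to 0.795). Acot1 passed the filter on low values only through KO6, so its flag is used as no support. WT1 and KO6 carried the most adipocyte transcripts, and KO6 alone keratinocyte transcripts. Their part in these values was not tested.

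The other 2 were low mice. Acadm in WT2 read 98.9 FPKM, under 142.0 to 146.7 FPKM in the other wild types. Cpt2 in KO7 read 21.5 FPKM, under 25.2 to 25.5 FPKM in the other knockouts.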

How the results depend on the processing

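No paired analysis was possible because the columns of the knockouts carry none of the numbers in the labels' titles. Over 21 alternatives no member passed the adjusted limma threshold (adjusted p from 0.368 to 1.0). Of 687 member values, 647 kept their direction, and 23 members never reversed, 21 of them lower in knockouts. The member median stayed between -0.43 (without WT2) and -0.21 (without WT1) with 1 mouse left out, and was -0.066 without WT1 and KO6 under median-ratio scaling. The number of genes past the threshold, 3 in all 8 mice, ran from 3 to 8 with 1 mouse left out, was 10 without WT1 and KO6 under either scaling, and 1 with zeros as missing. Acot1 has no value where KO6 is left out or at a mean of at least 5 FPKM, and Slc22a5 and Acot2 have none at the latter.

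The log2 difference changed sign for 10 members, and the cause was not tested. With the length and GC trend removed it was 0.069 for Plin5, 0.14 for Mlycd, 0.0093 for Hadh, -0.083 for Acot13, -0.082 for Etfb and 0.084 for Ucp2. Median-ratio scaling gave 0.11 for Plin5, 0.12 for Mlycd, 0.11 for Etfa and 0.018 for Ucp2, and quantile normalization 0.057 for Plin5, 0.0063 for Mlycd and -0.073 for Etfb. Without WT1 and KO6 it was 0.019 for Plin5, 0.011 for Mlycd and 0.036 for Etfa. With median-ratio scaling in those 6 mice it was 0.11 for Cd36, 0.22 for Plin5, 0.084 for Cpt2, 0.22 for Mlycd, 0.17 for Hadh and 0.25 for Etfa. With 1 mouse left out, Cd36 ran from -0.48 to 0.13, Angptl4 from -0.17 to 1.48, Plin5 from -0.090 to 0.027, Mlycd from -0.072 to 0.0058, Hadh from -0.26 to 0.0060, Etfa from -0.20 to 0.18, Etfb from -0.073 to 0.18 and Ucp2 from -0.63 to 0.24. With 4 mice a group, differences of the size seen here were often within the spread between mice, and relative depth, from 0.437 to 1.23, limits the low genes Acot1, Acot2, Slc22a5 and Angptl4 most.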
